A study of Mus musculus with 32 samples.

Results

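Collagen genes were taken as the protein-coding genes of a mouse gene count table whose symbols have the form Col, a number, a and a number. The table holds 56748 genes, and 44 of them met this rule. A count filter, which asked for about 10 counts in as many libraries as a group holds, left 16984 genes, and 33 collagen genes were among them. They were 10 of 11 fibrillar genes, 5 of 6 basement membrane genes and 18 of 27 other collagen genes. The other class passed with 4 of 6 beaded filament genes, 5 of 9 fibril-associated genes, 2 of 2 multiplexins, 2 of 3 network-forming genes, 1 of 1 anchoring fibril gene, 3 of 4 transmembrane genes and 1 of 2 remaining genes. Of the 33 genes, 28 lay above the 0.385 CPM of the filter (CPM, counts scaled to a fixed library total) in all 8 groups, and 27 had at least 10 counts in every library. Col10a1, Col2a1, Col4a6, Col6a5, Col6a6, Col9a1, Col9a2, Col19a1, Col22a1, Col25a1 and Col26a1 did not pass, with 10 (Col9a1) to 145 (Col4a6) counts over all libraries together.

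Collagens are secreted proteins of the extracellular matrix in which alpha chains wind into a triple helix. Fibrillar collagens, of which types I, III and V are the common ones in connective tissue, assemble into cable-like fibrils. Type IV collagen builds the sheet of the basement membrane that wraps each adipocyte, and type VI collagen forms beaded filaments that are abundant in adipose tissue. The chains are hydroxylated and folded in the endoplasmic reticulum, trimmed outside the cell and cross-linked by lysyl oxidases, so that a cell making collagen also uses a set of dedicated enzymes and chaperones.

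Poly(A) RNA was sequenced from mouse primary white adipocytes, which were prepared from subcutaneous fat, kept in culture and labelled wild type in every library. Small interfering RNAs (siRNAs, which silence a gene for a time) against Nfe2l1 and Atf3 together, against Nfe2l1 (siNfe2l1), against Atf3 (siAtf3) or of scrambled sequence were each combined with cholesterol loading or with control treatment, which gave 8 groups of 4 libraries. Loading meant 6 h with 400 µM cholesterol carried by methyl-β-cyclodextrin, a sugar ring that delivers sterols to membranes; whether the control treatment held this carrier is not given in the labels, so carrier and cholesterol cannot be told apart here. Nfe2l1 encodes a transcription factor of the endoplasmic reticulum that raises proteasome genes, and Atf3 encodes a stress-induced transcription factor of the ATF and AP-1 family. The labels call the libraries biological replicates, and the number, age and sex of the mice are not given in the sources used here.

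Total counts were 23457384 to 33828418 per library. Nfe2l1 lay at 23.4% of its scramble level with both siRNAs and at 15.2% with siNfe2l1 in control treatment, and at 19.3% and 14.7% with cholesterol. Atf3, which was 14.8-fold higher with cholesterol than with control treatment in scramble cells, lay at 57.3% of its scramble level with both siRNAs (adjusted p = 0.0468) and at 37.8% with siAtf3 in control treatment, and at 12.8% and 10.3% with cholesterol. Every adipocyte marker examined passed the filter (15 of 15, summed level 16680 to 27670 CPM), and none of 5 keratinocyte and epithelial markers did (summed level at most 0.336 CPM). Fibroblast and precursor markers other than collagens were also present, with 12 of 14 passing and a summed level of 3035 to 5147 CPM. All macrophage (13 of 13), endothelial (11 of 11), smooth muscle and pericyte (11 of 11) and Schwann cell (3 of 3) markers passed too. Passing the filter therefore does not set the adipocyte markers apart. In bulk RNA of this kind, fewer cells of a type and less RNA per cell cannot be told apart. The cholesterol-loaded siNfe2l1 libraries were uneven in Atf3, at 481.2, 290.0, 166.4 and 133.7 CPM, and the scramble ones at 561.2, 309.8, 439.3 and 280.8 CPM.

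Collagen messages made up a large part of this transcriptome. In scramble cells they held 2.72 to 2.96% of all counts in the 4 cholesterol-loaded libraries, against 5.35 to 5.61% in the 4 control libraries. With siAtf3 the shares were 2.02 to 2.27% with cholesterol and 4.40 to 4.58% in control treatment, the lowest of the 4 siRNA treatments in each medium. With siNfe2l1 they were 2.99 to 3.34% and 5.77 to 6.05%, and with both siRNAs 2.28 to 2.64% and 4.78 to 4.99%. The cholesterol-loaded and control libraries of each siRNA treatment therefore did not overlap in this share. Most of the gap lay in the fibrillar class, which held 1.07 to 1.15% of scramble counts with cholesterol and 2.88 to 3.01% in control treatment. The basement membrane class held 0.809 to 0.912% with cholesterol and 1.01 to 1.08% in control treatment.

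**Figure D1:**
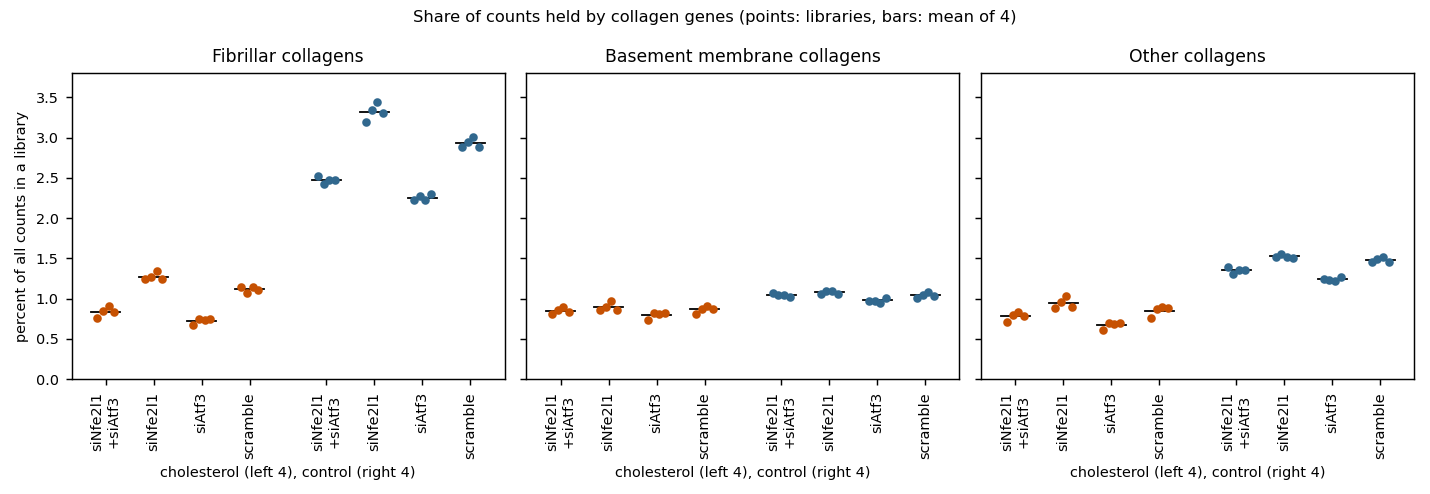
Percent of all counts held by fibrillar, basement membrane and other collagen genes in each of the 32 libraries (points; bars are means of 4 libraries), with cholesterol to the left of control treatment and the siRNA treatments in the order both, siNfe2l1, siAtf3 and scramble. The fibrillar share of scramble libraries is 1.07 to 1.15% with cholesterol, below the 2.88 to 3.01% of control libraries, while the basement membrane share stays between 0.734% and 1.10% over all 8 groups.

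Levels of different genes were compared per kilobase of the table's gene length (RPKM, which is CPM divided by kilobases; mean of all 32 libraries). Col1a1, a chain of type I collagen, stood first at 921.7 RPKM. It was followed by the type IV gene Col4a1 at 767.6 RPKM, the type VI gene Col6a1 at 718.1 RPKM and Col4a2 at 557.5 RPKM. Next came the type III gene Col3a1 at 350.9 RPKM, the type V gene Col5a3 at 347.7 RPKM, Col15a1 at 321.7 RPKM and Col1a2, the partner chain of Col1a1, at 299.9 RPKM. Col1a1 and Col4a1 changed place by medium: in scramble cells Col4a1 averaged 788.2 RPKM and Col1a1 479.7 RPKM with cholesterol, but Col4a1 849.5 RPKM and Col1a1 1502 RPKM in control treatment. Col3a1 lay below Col4a1 in both media, at 190.7 RPKM with cholesterol and 747.0 RPKM in control treatment, and Col5a3 stood above Col1a1 with cholesterol at 506.8 RPKM. From Col12a1 (24.6 RPKM) downward the levels fell steeply, and the lowest gene that passed, Col4a3, reached 0.0235 RPKM.

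The table places the genes on GRCm39. Col3a1 (chr1:45350698-45388866, plus strand) and Col5a2 (minus strand) lie 24614 bases apart, tail to tail. Col6a2 and Col6a1 lie 85161 bases apart on the minus strand of chromosome 10. Col4a1 (chr8:11248423-11362826, minus strand) and Col4a2 (chr8:11362805-11499287, plus strand) start head to head and their transcribed ends overlap by 22 bases, in which unstranded reads could not be assigned to 1 gene. That shared stretch is shown because it joins the starts of the pair that held most of the basement membrane counts. It is read on the plus strand of GRCm38.p6 from RefSeq, between the RefSeq starts 11312826 of Col4a1 and 11312805 of Col4a2.
Col4a1 and Col4a2: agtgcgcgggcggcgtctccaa

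Loading with cholesterol lowered most collagen messages in scramble cells. Of the 33 genes tested, 23 were lower and 2 higher, against 32.3% lower and 32.9% higher among all 16984 genes (edgeR's quasi-likelihood test, Benjamini-Hochberg adjusted over all genes, called at 0.05; these settings hold for every call below). The median log2 fold change of the collagen genes was -0.42, and that of all genes was 0.00. Of the 27 genes with at least 10 counts in every library, 21 were lower and 2 higher, and their median was -0.74. By class, 8 of 10 fibrillar genes fell and 2 rose (median -1.44), 3 of 5 basement membrane genes fell (median -0.20) and 12 of 18 other genes fell (median -0.58).

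Type I and type III collagen, the bulk of the fibrils of connective tissue, each fell more than 3-fold. Col1a1 had 3365, 2901, 3268 and 3060 CPM with cholesterol, against 9573, 9941, 10330 and 9593 CPM in control treatment. No library of one group came near the other, and the log2 fold change was -1.65 ± 0.06 (SE; 3.13-fold lower, adjusted p = 3.48e-23). Col1a2 had 1947, 1712, 1866 and 1852 CPM with cholesterol, against 5573, 5653, 5856 and 5667 CPM in control treatment (log2 fold change -1.62 ± 0.04, 3.08-fold lower, adjusted p = 2.96e-26). The count ratio of Col1a1 to Col1a2 overlapped between the groups, at 1.65 to 1.75 with cholesterol and 1.69 to 1.76 in control treatment. Col3a1 had 1923, 1769, 1835 and 1961 CPM with cholesterol, against 7203, 7526, 7459 and 7143 CPM in control treatment. It fell by 1.97 ± 0.06 on the log2 scale (3.92-fold lower, adjusted p = 1.54e-24). Its count ratio to Col1a2 was 0.983 to 1.06 with cholesterol and 1.26 to 1.33 in control treatment.

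The chains of type V collagen, which starts and limits the width of type I fibrils, went different ways. Col5a1 had 1019, 1002, 1078 and 994.8 CPM with cholesterol, against 2398, 2545, 2527 and 2321 CPM in control treatment, 2.39-fold lower (adjusted p = 1.25e-20). Col5a2 fell 1.90-fold (log2 fold change -0.93 ± 0.04). Col5a3, a chain described in fat and muscle, had 3663, 3315, 3734 and 3093 CPM with cholesterol, against 2425, 2614, 2631 and 2498 CPM in control treatment. All 4 loaded libraries lay above all control libraries, and Col5a3 rose by a log2 fold change of 0.44 ± 0.06 (1.36-fold, adjusted p = 1.32e-07). The count ratio of Col5a3 to Col5a1 was 3.11 to 3.60 with cholesterol and 1.01 to 1.08 in control treatment. Among less abundant fibrillar genes, Col27a1, a fibrillar gene best known from cartilage, had 81.2, 80.5, 87.7 and 68.2 CPM with cholesterol, against 36.8, 33.03, 37.9 and 33.8 CPM in control treatment. It rose 2.24-fold (log2 fold change 1.16 ± 0.08, adjusted p = 3.35e-14), the only collagen gene to rise by more than 2-fold. Col24a1 (-2.23) and Col11a1 (-2.48 on the log2 scale) fell from low levels, and Col11a2 fell by 0.28.

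**Figure D2:**
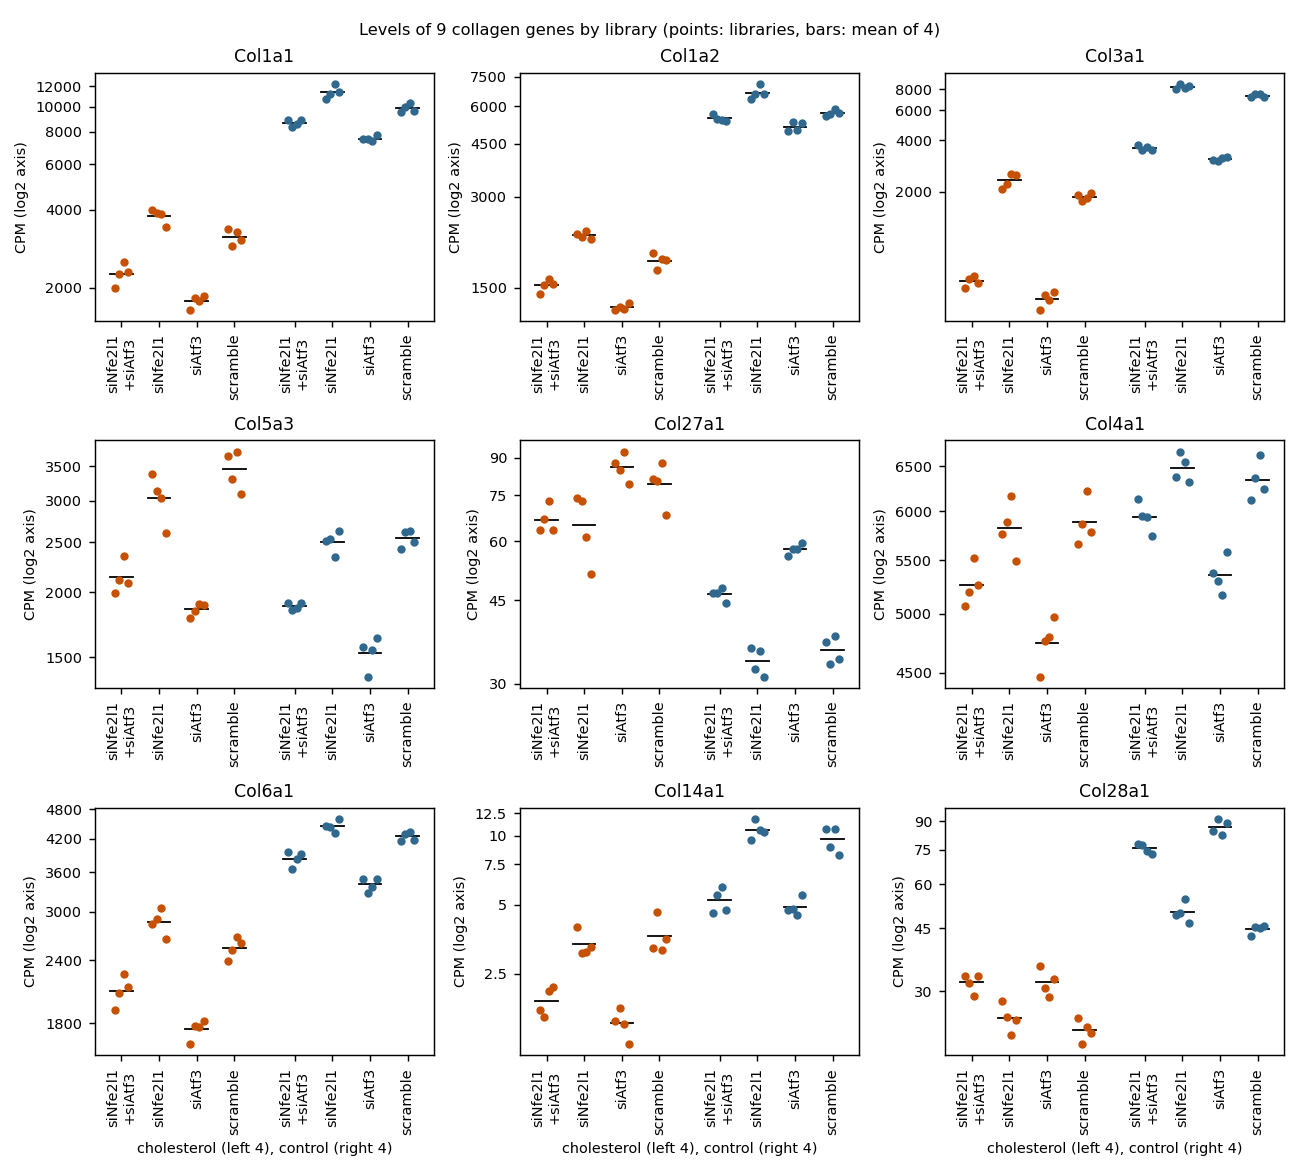
CPM (log2 axis) of 9 collagen genes in each of the 32 libraries, 4 points per group, with cholesterol to the left of control treatment within each siRNA treatment. Col1a1, Col1a2 and Col3a1 lie lower with cholesterol in every siRNA treatment, Col27a1 and Col5a3 average higher, and Col4a1 hardly moves (4467 to 6221 CPM with cholesterol, 5166 to 6671 CPM in control treatment, over all siRNA treatments).

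Basement membrane collagen moved little by comparison. Col4a1 had 5658, 5868, 6221 and 5784 CPM with cholesterol, against 6125, 6368, 6630 and 6239 CPM in control treatment. These groups overlapped, and the fall of 0.11 ± 0.04 on the log2 scale (adjusted p = 0.0237) no longer passed with scramble library 3 of control treatment left out (adjusted p = 0.0772), with library 1 of the cholesterol group left out (0.0709), or when only these 2 groups were fitted (0.0562). Col4a2 had 3455, 3681, 3899 and 3589 CPM with cholesterol, against 4009, 4273, 4382 and 4091 CPM in control treatment, without overlap (1.15-fold lower, adjusted p = 0.00061). The X-linked chain Col4a5 fell 1.26-fold, and the low Col4a3 (log2 fold change 0.12) and Col4a4 (-0.27) did not pass the test. Col15a1, a multiplexin of basement membrane zones, had 1820, 2101, 2152 and 2003 CPM with cholesterol, against 2598, 2674, 2750 and 2574 CPM in control treatment (1.31-fold lower, adjusted p = 2.42e-08). Col18a1, the other multiplexin and the precursor of endostatin, had a log2 fold change of 0.08 ± 0.05 that did not pass (adjusted p = 0.139).

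The 3 chains of type VI collagen that were abundant fell together. Col6a1 had 2392, 2518, 2667 and 2597 CPM with cholesterol, against 4156, 4292, 4337 and 4179 CPM in control treatment (1.67-fold lower, adjusted p = 7.27e-16). Col6a2 fell 1.85-fold and Col6a3, whose C-terminal fragment is endotrophin, 1.71-fold. Of the fibril-associated collagens, which decorate fibrils without forming them, Col12a1 fell 2.24-fold, Col14a1 2.63-fold and Col16a1 1.86-fold. Col14a1 had 3.23, 4.66, 3.17 and 3.53 CPM with cholesterol, against 10.7, 8.88, 10.7 and 8.22 CPM in control treatment. Both network-forming genes that passed the filter fell. Col8a1 had 7.12, 8.72, 8.56 and 7.51 CPM with cholesterol, against 37.7, 36.9, 33.9 and 37.9 CPM in control treatment, 4.58-fold lower (log2 fold change -2.20 ± 0.10, adjusted p = 1.15e-19). Col8a2, at a mean of 1.63 CPM over all libraries, fell by 3.12 ± 0.27 on the log2 scale. It lay above the 0.385 CPM of the filter in only 5 of 8 groups and had 10 counts in 22 of 32 libraries. Col8a2 therefore passed the filter through the groups where it was higher, and its fold change rests on few counts. Col28a1, a collagen with von Willebrand factor A domains, had 25.2, 21.3, 23.8 and 22.9 CPM with cholesterol, against 43.0, 45.5, 45.2 and 45.7 CPM in control treatment (1.93-fold lower, adjusted p = 4.31e-15).

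The fall was present under every siRNA treatment. With cholesterol against control treatment, 24 collagen genes were lower and 2 higher with both siRNAs (28.9% and 29.8% of all genes), 23 lower and 2 higher with siNfe2l1 (29% and 31.1% of all genes), and 24 lower and 3 higher with siAtf3 (28.6% and 29.4% of all genes). The median log2 fold changes of the collagen genes were -0.75 with both siRNAs, -0.64 with siNfe2l1 and -0.83 with siAtf3, against 0.00, 0.01 and 0.00 for all genes. Over the 27 genes with at least 10 counts in every library they were -0.75, -0.64 and -0.75, beside -0.74 with scramble. Fibrillar medians were -1.56, -1.42 and -1.63 in that order. Col3a1 fell 6.07-fold with both siRNAs, 3.52-fold with siNfe2l1 and 6.62-fold with siAtf3. Col8a1 fell 4.51-fold, 4.54-fold and 5.14-fold, and Col27a1 rose 1.44-fold, 1.93-fold and 1.5-fold. Col5a3 rose 1.14-fold, 1.22-fold and 1.21-fold.

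The promoter sequences of 5 of these genes are shown because they moved differently: Col1a2 and Col3a1 fell strongly, Col6a1 fell moderately, and Col5a3 and Col27a1 rose with cholesterol. They are the 250 bases before the annotated start in RefSeq (GRCm38.p6), written along the gene's strand. Capitals mark matches on either strand to letters known from promoters: TATAAA of the TATA box, CCAAT of the box of that name, GGGCGG of the GC box, which reads CCGCCC on the other strand, and TGANTCA of AP-1. The marked matches do not overlap one another.
Col1a2 (chr6:4505368-4505617, plus strand): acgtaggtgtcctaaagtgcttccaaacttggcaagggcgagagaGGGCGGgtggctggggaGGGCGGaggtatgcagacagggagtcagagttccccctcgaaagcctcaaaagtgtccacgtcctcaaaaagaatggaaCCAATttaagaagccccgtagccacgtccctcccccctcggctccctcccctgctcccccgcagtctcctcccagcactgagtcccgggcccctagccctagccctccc
Col3a1 (chr1:45311288-45311537, plus strand): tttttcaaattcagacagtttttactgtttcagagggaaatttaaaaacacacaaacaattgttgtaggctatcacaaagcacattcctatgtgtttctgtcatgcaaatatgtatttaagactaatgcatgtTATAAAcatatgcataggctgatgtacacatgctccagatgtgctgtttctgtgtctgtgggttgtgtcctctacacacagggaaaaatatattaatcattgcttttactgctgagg
Col5a3 (chr9:20815068-20815317, minus strand): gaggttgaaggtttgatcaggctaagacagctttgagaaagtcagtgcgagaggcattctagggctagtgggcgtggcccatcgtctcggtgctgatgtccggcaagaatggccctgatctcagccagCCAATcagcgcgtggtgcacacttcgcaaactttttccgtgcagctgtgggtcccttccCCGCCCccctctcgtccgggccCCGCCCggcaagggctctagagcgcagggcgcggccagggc
Col27a1 (chr4:63215162-63215411, plus strand): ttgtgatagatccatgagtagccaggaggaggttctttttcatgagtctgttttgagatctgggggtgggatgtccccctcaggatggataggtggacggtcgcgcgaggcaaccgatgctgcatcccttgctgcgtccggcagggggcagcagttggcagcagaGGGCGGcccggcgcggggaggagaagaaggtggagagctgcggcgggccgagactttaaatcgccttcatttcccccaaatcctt
Col6a1 (chr10:76726045-76726294, minus strand): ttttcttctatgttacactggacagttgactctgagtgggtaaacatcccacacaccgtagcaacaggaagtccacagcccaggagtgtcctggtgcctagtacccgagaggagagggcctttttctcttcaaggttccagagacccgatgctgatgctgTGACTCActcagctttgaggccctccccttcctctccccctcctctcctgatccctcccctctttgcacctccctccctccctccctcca
The only TATAAA of these 5 windows stands 112 bases before the start of Col3a1, CCAAT stands 105 bases before Col1a2 and 118 bases before Col5a3, and TGANTCA stands 84 bases before Col6a1. Of the 33 genes, 27 had a RefSeq window in the table, with 29 windows in all. GGGCGG was in 17 of the 29 (58.6%), against 32.7% of the windows of all genes (32851). CCAAT was in 11 (37.9% against 33.8%), TATAAA in 4 (13.8% against 12.4%) and TGANTCA in 1 (3.45% against 6.75%). The cyclic AMP response element letters TGACGTCA were in none of the 29 and in 1.55% of all windows. The 29 windows are those of genes past the count filter. The windows of all genes were neither filtered by counts nor matched in base composition. The part of expression and base composition in these shares was not tested. A match describes letters in this window only; binding was not measured.

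Most collagen messages were lower with siAtf3 than with scramble in control treatment too. Effects of an siRNA beyond its target gene were not tested. With siAtf3, 20 collagen genes were lower and 4 higher than with scramble, against 18.2% and 18.1% of all genes. The median log2 fold change was -0.27, that of all genes 0.01. By class, 7 fibrillar genes fell and 2 rose, 2 basement membrane genes fell and 1 rose, and 11 other genes fell and 1 rose. With library totals in place of TMM scaling (trimmed mean of M-values), which shifted the median of all genes to 0.15, the split was 12 lower and 5 higher. The shares of all genes given here and below are those with TMM scaling and do not carry over to splits with library totals. Col1a2, Col4a2, Col5a2, Col7a1, Col8a1, Col12a1 and Col16a1 then no longer passed, and Col18a1 turned from -0.13 to 0.00.

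Col3a1 had the lowest fold change of the 33 genes with siAtf3 in both media. It had 3091, 3033, 3159 and 3177 CPM with siAtf3, against 7203, 7526, 7459 and 7143 CPM with scramble in control treatment (log2 fold change -1.24 ± 0.06, 2.35-fold lower, adjusted p = 2.02e-18). With cholesterol it had 408.4, 496.6, 463.2 and 515.1 CPM with siAtf3, against 1923, 1769, 1835 and 1961 CPM with scramble (-1.99 ± 0.06, 3.98-fold lower, adjusted p = 4.80e-24). The groups were far apart in both media. Col1a2, with which it shares fibrils through type I collagen, averaged 5128 ± 172 CPM with siAtf3 and 5687 ± 120 CPM with scramble in control treatment (SD, n = 4 each; 1.11-fold lower), and 1294 ± 31.6 CPM with siAtf3 and 1844 ± 97.8 CPM with scramble with cholesterol (1.43-fold lower). The Col1a2 call in control treatment was lost with library totals (log2 fold change -0.01, adjusted p = 0.843). The count ratio of Col3a1 to Col1a2 was 0.572 to 0.631 with siAtf3 and 1.26 to 1.33 with scramble in control treatment, and 0.322 to 0.385 with siAtf3 and 0.983 to 1.06 with scramble with cholesterol.

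Other fibrillar genes and the fibril-associated Col14a1 also fell. Col5a3 had 1569, 1374, 1547 and 1631 CPM with siAtf3, against 2425, 2614, 2631 and 2498 CPM with scramble in control treatment (log2 fold change -0.73 ± 0.06, adjusted p = 8.50e-12). With cholesterol it averaged 1854 ± 51.5 CPM with siAtf3 and 3451 ± 301 CPM with scramble (-0.90 ± 0.06, adjusted p = 4.14e-14). Col1a1 averaged 7522 ± 178 CPM with siAtf3 and 9861 ± 358 CPM with scramble in control treatment (-0.39), and 1772 ± 89.9 CPM with siAtf3 and 3148 ± 208 CPM with scramble with cholesterol (-0.83). Col11a2 had 9.55, 9.24, 11.2 and 11.4 CPM with siAtf3, against 15.8, 16.1, 18.5 and 16.3 CPM with scramble in control treatment (1.61-fold lower). Col14a1 had 4.74, 4.76, 4.50 and 5.48 CPM with siAtf3, against 10.7, 8.88, 10.7 and 8.22 CPM with scramble in control treatment (1.98-fold lower), and with cholesterol it was 2.40-fold lower. Each of these pairs of groups was without overlap.

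Some collagen genes rose with siAtf3. Col28a1 had 84.4, 91.4, 82.2 and 89.3 CPM with siAtf3, against 43.0, 45.5, 45.2 and 45.7 CPM with scramble in control treatment (log2 fold change 0.95 ± 0.06, 1.94-fold, adjusted p = 4.15e-15). With cholesterol it had 35.4, 30.6, 28.9 and 32.5 CPM with siAtf3, against 25.2, 21.3, 23.8 and 22.9 CPM with scramble (0.45 ± 0.07, adjusted p = 5.19e-07). Col27a1 had 55.8, 57.7, 57.7 and 59.5 CPM with siAtf3, against 36.8, 33.03, 37.9 and 33.8 CPM with scramble in control treatment (0.70 ± 0.08, adjusted p = 2.14e-08). With cholesterol the Col27a1 groups overlapped and the difference of 0.12 did not pass (adjusted p = 0.223). Col4a5 was higher by 0.39 in control treatment and 0.34 with cholesterol, while Col4a1 and Col4a2 were lower in both media, Col4a1 by 0.24 and 0.31 and Col4a2 by 0.21 and 0.31 on the log2 scale. Col11a1, at a mean of 1.44 CPM over all libraries, was higher by 0.74 and 0.95, and the difference with cholesterol no longer passed when scramble library 1 (adjusted p = 0.0705), siAtf3 library 1 (0.0699) or siAtf3 library 4 (0.0614) was left out.

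In cholesterol-loaded cells as a whole, 19 collagen genes were lower and 4 higher with siAtf3 than with scramble, against 27.4% and 23% of all genes, with medians of -0.46 for the collagen genes and -0.02 for all genes. Type VI genes fell 1.45-fold (Col6a1), 1.65-fold (Col6a2) and 1.46-fold (Col6a3), and both multiplexins 1.38-fold. The membrane-spanning Col13a1, known from the neuromuscular junction, had 7.65, 7.55, 8.13 and 7.59 CPM with siAtf3, against 10.9, 12.5, 11.4 and 11.1 CPM with scramble (1.48-fold lower, adjusted p = 2.71e-06). Col23a1, also membrane-spanning, was higher by 0.50. With library totals the split was 16 lower and 6 higher, with a median of all genes of 0.17.

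**Figure D3:**
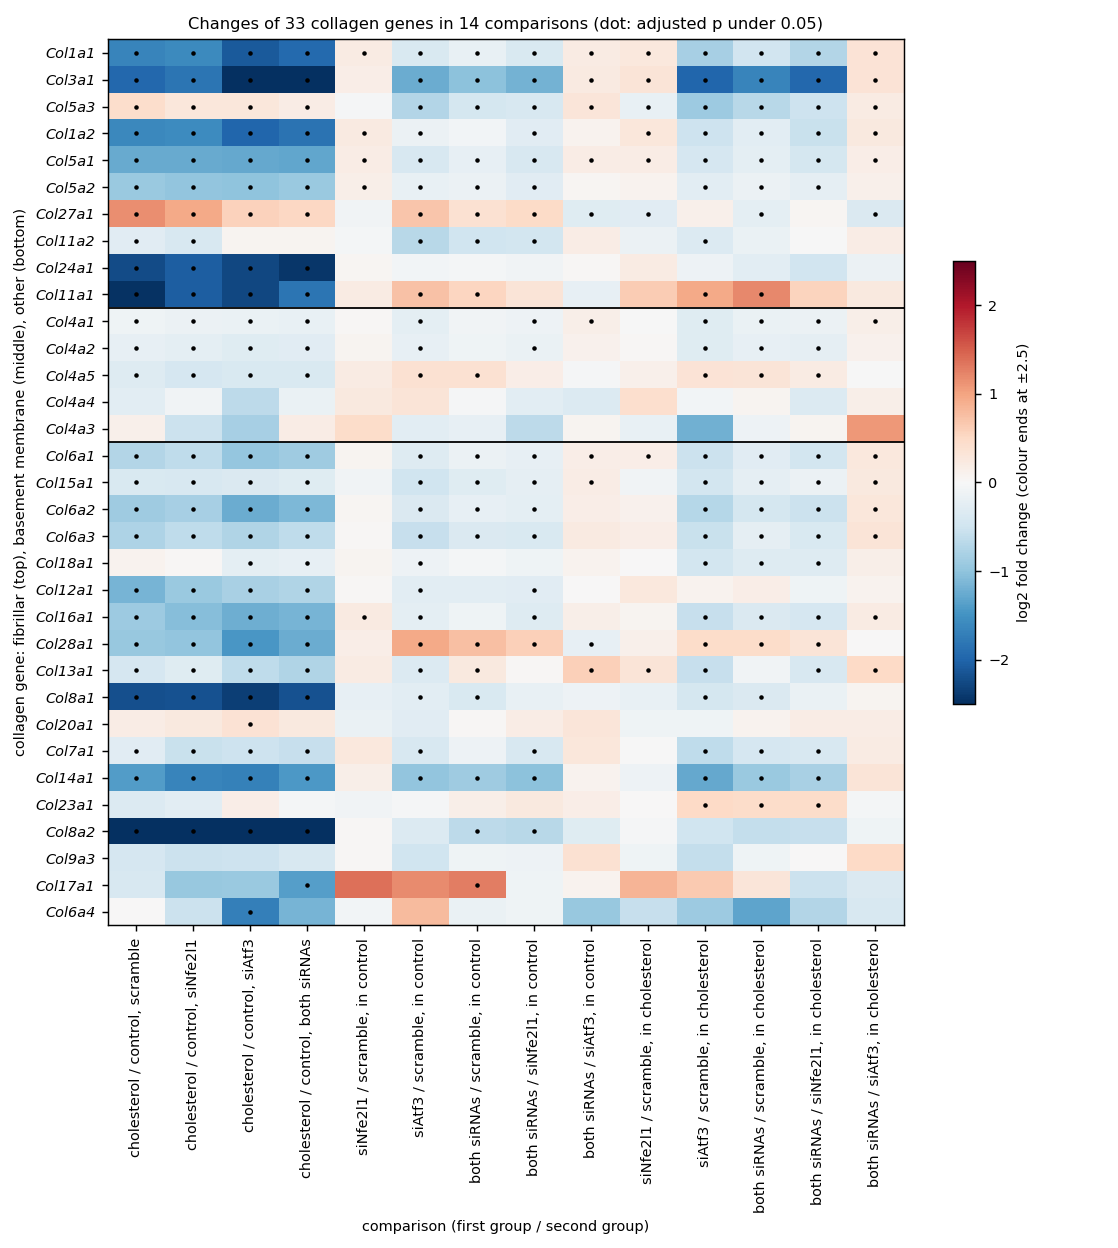
Log2 fold changes of the 33 collagen genes (rows, by class) in 14 comparisons of 2 groups (columns); blue is lower, red is higher, colours end at 2.5 in either direction, and a dot marks an adjusted p under 0.05. The cholesterol columns are mostly blue apart from Col5a3 and Col27a1, and with siAtf3 Col3a1 is among the deepest blue cells while Col28a1 and Col4a5 are red; with library totals Col18a1 with siAtf3 in control treatment is at 0.00.

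The response to cholesterol itself differed with siAtf3. The difference between the response with siAtf3 and the response with scramble passed the test for 9 collagen genes, all lower, and for none in the other direction. Among all genes, 9.13% were lower and 6.21% higher. Col3a1 had the smallest adjusted p, with a further fall of 0.76 ± 0.08 on the log2 scale (adjusted p = 2.03e-07), then Col1a2 (-0.36, adjusted p = 0.000103), Col28a1 (-0.50, 0.000288), Col1a1 (-0.44, 0.000322) and Col27a1 (-0.58 ± 0.11, 0.000862). For Col27a1 this is a smaller rise: 1.5-fold with siAtf3 and 2.24-fold with scramble. Col18a1 (-0.33), Col6a2 (-0.36), Col16a1 (-0.33) and Col6a1 (-0.22, adjusted p = 0.0215) completed the 9. The Col6a1 difference was lost without several of the libraries in turn and with library totals (adjusted p = 0.079), and that of Col16a1 without siAtf3 control library 3 (0.0578) or scramble cholesterol library 3 (0.062). With library totals and without the count filter the split was in each case 8 lower and 1 higher. No basement membrane gene passed, and Col4a1 differed by -0.07 ± 0.06.

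**Figure D4:**
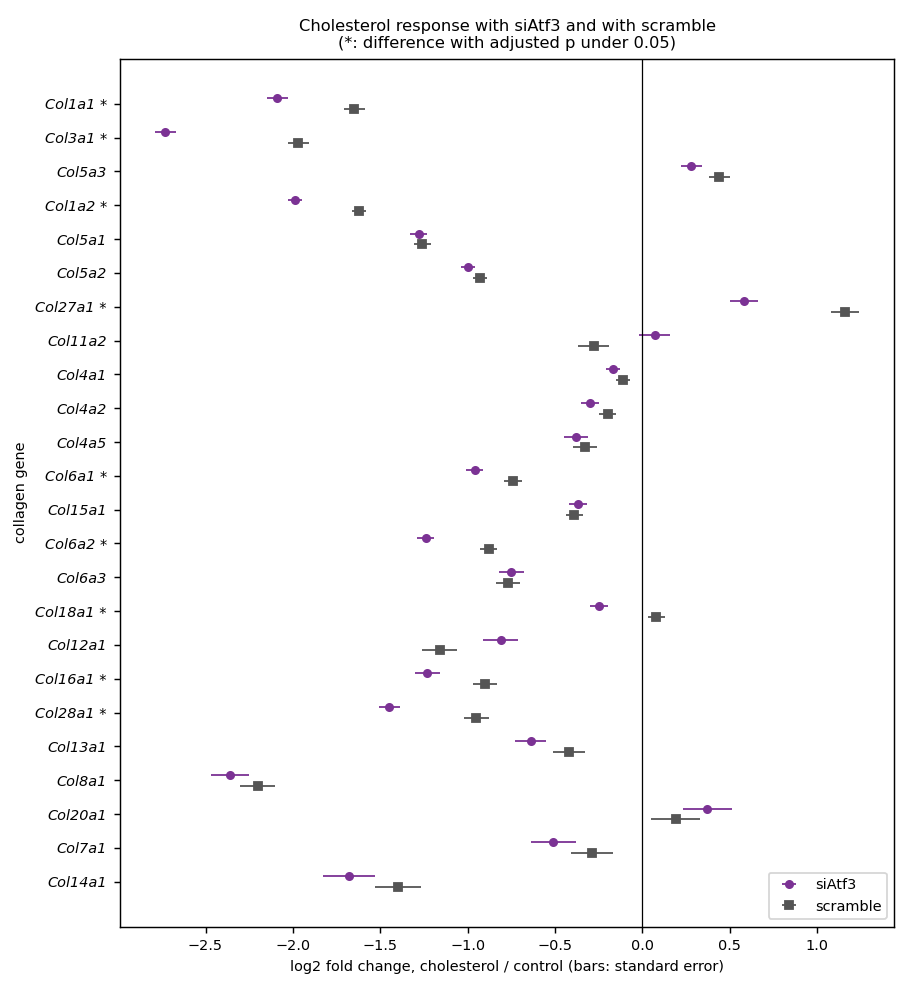
Log2 fold change with cholesterol against control treatment (± SE) for the 24 collagen genes whose average log2 CPM reached 2, with siAtf3 (circles, upper) and with scramble (squares, lower); an asterisk marks a gene whose difference between them passed the test. Col3a1 lies at -2.73 with siAtf3 and -1.97 with scramble, Col27a1 at 0.58 and 1.16, and the pairs of Col4a1 lie close together at -0.17 and -0.11.

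Few collagen genes moved with siNfe2l1, and by small amounts. In control treatment 5 were higher and 0 lower than with scramble, against 3.13% and 2.87% of all genes, and DESeq2 gave 6 higher and 0 lower. Col1a2 had 6343, 6558, 7071 and 6577 CPM with siNfe2l1, against 5573, 5653, 5856 and 5667 CPM with scramble (log2 fold change 0.22 ± 0.04, adjusted p = 0.000507). These groups did not overlap, and Col1a2 passed whichever library was left out. Col1a1 (0.21), Col5a1 (0.19), Col5a2 (0.14) and Col16a1 (0.23) also rose, but the count was 2 without scramble control library 1 or 4 and 3 without siNfe2l1 control library 3.

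With cholesterol 6 collagen genes were higher and 2 lower with siNfe2l1 than with scramble, against 11.3% and 8.59% of all genes. Col3a1 had 2064, 2212, 2546 and 2510 CPM with siNfe2l1, against 1923, 1769, 1835 and 1961 CPM with scramble (0.32 ± 0.06, adjusted p = 0.000209), and Col1a2 was higher by 0.28 ± 0.04. Col27a1 (-0.29) and Col5a3 (-0.18) were lower, each with overlapping groups. When only these 2 groups were fitted, 1 gene was called, Col1a2 (adjusted p = 0.0281), and 3 were higher without siNfe2l1 cholesterol libraries 3 and 4; with library totals 9 were higher and 1 lower. The cholesterol response did not differ between siNfe2l1 and scramble for any collagen gene in edgeR or DESeq2, 0 of 33 had an unadjusted p under 0.05, and 0.206% of all genes were higher and 0.0412% lower. Macrophage markers moved with these comparisons: 11 of 13 were higher with siNfe2l1 in control treatment (summed level 304.3 to 460.7 CPM with siNfe2l1 and 227.8 to 264.9 CPM with scramble). With cholesterol 12 of 13 were higher, and the shares of all genes that were higher were 3.13% in control treatment and 11.3% with cholesterol. Endothelial markers moved as well, with 7 of 11 higher and 0 lower with cholesterol, where the summed levels overlapped (547.8 to 634.4 CPM with siNfe2l1 and 485.2 to 571.5 CPM with scramble). In control treatment 1 of 11 was higher and 0 lower. The part of these markers in the siNfe2l1 collagen differences was not tested.

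With both siRNAs more collagen genes were lower than higher against scramble too, and macrophage and fibroblast markers moved as well. Against scramble in control treatment 13 collagen genes were lower and 6 higher, against 14.3% and 12.9% of all genes, and with library totals 8 were lower and 6 higher. With cholesterol 18 were lower and 4 higher, against 23.9% and 20.8% of all genes, and with library totals 9 were lower and 5 higher. Col3a1 had 547.9, 616.5, 638.1 and 582.2 CPM with both siRNAs and cholesterol, against 1923, 1769, 1835 and 1961 CPM with scramble and cholesterol (-1.65 ± 0.06, adjusted p = 1.12e-21). Against siNfe2l1, 18 were lower and 2 higher in control treatment (14.5% and 12.3% of all genes) and 17 lower and 3 higher with cholesterol (20.9% and 15.7% of all genes). Col3a1 again fell furthest among the abundant genes, by 1.18 in control treatment and 1.97 with cholesterol on the log2 scale. Nfe2l1 itself was 1.54-fold higher with both siRNAs than with siNfe2l1 in control treatment (adjusted p = 6.11e-09) and 1.31-fold higher with cholesterol (2.26e-05). The part of this Nfe2l1 difference in the collagen differences was not tested.

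Against siAtf3, both siRNAs gave higher levels of 8 collagen genes and lower levels of 2 in control treatment (3.71% and 1.94% of all genes), and of 12 and 1 with cholesterol (5.4% and 2.71% of all genes). Col1a1 had 1984, 2256, 2504 and 2306 CPM with both siRNAs, against 1645, 1819, 1774 and 1849 CPM with siAtf3, each with cholesterol (0.35 ± 0.06, adjusted p = 4.80e-05). Col3a1 was higher by 0.34 ± 0.06 there. Col13a1 had 20.2, 17.2, 17.5 and 18.1 CPM with both siRNAs, against 12.2, 10.9, 12.9 and 12.4 CPM with siAtf3 in control treatment (0.60 ± 0.08, adjusted p = 8.05e-06), and stood above its scramble level by 0.25. Col27a1 was the gene that went down in both media, by 0.31 and 0.37 on the log2 scale; in control treatment it no longer passed when library 4 of both siRNAs was left out (adjusted p = 0.0628). The control treatment count of 10 was 3 without siAtf3 control library 2 or the library 1 of both siRNAs, 6 without siAtf3 control library 3 or the library 4 of both siRNAs, and 5 with library totals (3 higher, 2 lower). Atf3 itself was 1.52-fold higher with both siRNAs than with siAtf3 in control treatment and 1.24-fold higher with cholesterol, neither past the test. In control treatment its groups did not overlap, at 13.59 to 16.65 CPM with both siRNAs and 9.10 to 10.96 CPM with siAtf3. The part of this Atf3 difference in the collagen differences was not tested.

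The cholesterol response with both siRNAs differed from that with scramble for 8 collagen genes, all lower, against 7.21% lower and 6.52% higher among all genes. They were Col27a1 (-0.64), Col3a1 (-0.63 ± 0.08, adjusted p = 1.12e-05), Col28a1 (-0.31), Col1a1 (-0.29), Col18a1 (-0.28), Col5a3 (-0.26, adjusted p = 0.048), Col6a2 (-0.23) and Col1a2 (-0.21). The comparison shares its scramble libraries with that of siAtf3. Library 1 weighed on this count: it was 5 without scramble control library 1, without control library 1 or cholesterol library 1 of both siRNAs, and 2 without all 8 libraries numbered 1. With library totals 5 were lower and 2 higher.

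The machinery that makes and handles collagen was followed through lists of partner genes. Of 32 genes for collagen synthesis, 28 were lower and 2 higher with cholesterol in scramble cells (median log2 fold change -0.81), against 32.3% and 32.9% of all genes, which are the shares for the lists that follow too. Loxl3, a lysyl oxidase that cross-links fibrils, fell by 2.07, Fkbp10, a folding enzyme for procollagen, by 1.48 and Serpinh1, the collagen chaperone HSP47, by 0.45. Of 20 breakdown genes 13 were lower and 5 higher (median -0.35). This list also holds inhibitors of breakdown (Timp1, Timp2, Timp3, Timp4 and Reck), so its counts give no direction of breakdown here or below. Mrc2, an uptake receptor for collagen fragments, fell by 1.39 and the inhibitor Timp2 by 0.92, while Ctsk, a collagen-cleaving protease, rose by 1.26. Of 11 receptors 7 were lower and 3 higher (median -0.21), with Itga1, a collagen-binding integrin chain, at -0.65 and Cd44, a matrix receptor best known for hyaluronan, at 1.22.

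Of 18 other matrix genes 17 were lower and 0 higher (median -1.08), among them the microfibril gene Fbn1 (-2.29), elastin (Eln, -2.11) and Fbln2 (-1.18). Of 16 laminins and other basement membrane partners 11 were lower and 3 higher (median -0.47). Pxdn, which cross-links type IV collagen, was at -0.85 and Nid2, a linker of laminin and type IV collagen, at -0.76. Of 19 TGF-beta pathway genes, a pathway that drives collagen genes in many cells, 11 were lower and 7 higher (median -0.35). The genes that were higher made up a share near that of all genes in the TGF-beta list and among the receptors. The ligand Tgfb3 was at -2.72, the latent binding protein Ltbp2 at -2.22 and the corepressor Tgif1 at 2.54.

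With siAtf3 in control treatment, 22 synthesis genes were lower and 1 higher (median -0.31), 12 breakdown genes lower and 2 higher (-0.20), 6 receptors lower and 0 higher (-0.17), 15 matrix genes lower and 0 higher (-0.32), 10 basement membrane partners lower and 3 higher (-0.34) and 11 TGF-beta genes lower and 1 higher (-0.23), against 18.2% lower and 18.1% higher of all genes. The 3 higher of 16 basement membrane partners lie near that share. P4ha3 and Plod2, hydroxylases of proline and lysine in procollagen, fell by 1.20 and 1.00, Timp3 by 1.57, the collagen-binding integrin chain Itga11 by 1.30 and Nid2 by 1.26. With cholesterol the counts were 20 lower and 3 higher, 13 and 4, 7 and 2, 17 and 0, 8 and 3, and 14 and 3 in the same order of lists, against 27.4% and 23% of all genes. P4ha3 then fell by 2.08, Nid2 by 1.63, Plod2 by 1.38 and Smad3, which carries the TGF-beta signal, by 0.70. With siNfe2l1 in control treatment 3 of 32 synthesis genes were higher and 1 lower, against 3.13% and 2.87% of all genes, and 16 were higher and 1 lower with cholesterol, against 11.3% and 8.59%. Serpinh1 was the lower one in both, by 0.23 and 0.36.

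**Figure D5:**
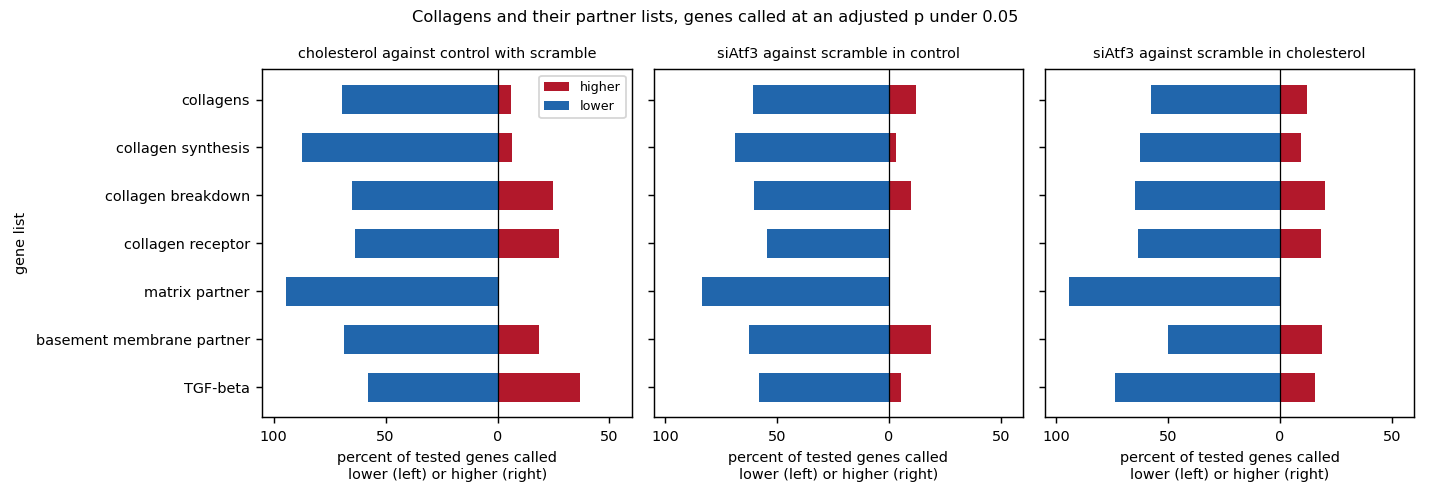
Percent of tested genes called lower (left of zero) and higher (right of zero) among collagen genes and 6 lists of partner genes, in the comparisons of cholesterol with control treatment in scramble cells and of siAtf3 with scramble in each medium. In all 3 comparisons more genes of each list were lower than higher, most of all in the matrix list with 17, 15 and 17 lower and 0 higher of 18.

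Markers of the cell types that such a culture could hold moved alongside. With cholesterol in scramble cells 9 of 12 fibroblast markers without collagens were lower and 2 higher (median -0.78). Their summed level was 3888 to 4713 CPM with cholesterol and 4672 to 4790 CPM in control treatment. Vim, the highest gene of the list, averaged 2430 CPM with cholesterol and 1920 CPM in control treatment, so this sum understates the fall of most of the list. Of the adipocyte markers 12 of 15 were higher and 1 lower (summed level 25740 to 27670 CPM with cholesterol and 20900 to 21580 CPM in control treatment). Of 11 smooth muscle and pericyte markers 7 were lower and 3 higher (400.8 to 440.9 CPM with cholesterol and 847.8 to 927.6 CPM in control treatment), 10 of 11 endothelial markers were lower and 1 higher (485.2 to 571.5 and 754.8 to 810.2 CPM) and 11 of 13 macrophage markers were lower and 0 higher (139.0 to 170.7 and 227.8 to 264.9 CPM). Of 3 Schwann cell markers 1 was lower. Of all genes, 32.3% were lower and 32.9% higher in this comparison. The 3 higher smooth muscle and pericyte markers and the lower Schwann cell marker lie near these shares. With siAtf3, 7 fibroblast markers were lower and 2 higher in control treatment (3919 to 4103 CPM with siAtf3 and 4672 to 4790 CPM with scramble), and 9 were lower and 0 higher with cholesterol (3035 to 3166 CPM with siAtf3 and 3888 to 4713 CPM with scramble). Adipocyte markers were 7 lower and 2 higher in control treatment (16680 to 17960 CPM with siAtf3 and 20900 to 21580 CPM with scramble), and 9 lower and 2 higher with cholesterol (21610 to 23710 CPM with siAtf3 and 25740 to 27670 CPM with scramble). Endothelial markers were 4 lower and 0 higher in control treatment and 8 lower and 1 higher with cholesterol (348.5 to 386.9 CPM with siAtf3 and 485.2 to 571.5 CPM with scramble). Macrophage markers were 5 higher and 1 lower in control treatment (309.6 to 405.3 CPM with siAtf3 and 227.8 to 264.9 CPM with scramble), and 2 higher and 4 lower with cholesterol. Smooth muscle and pericyte markers were 4 lower and 1 higher in control treatment, and 5 lower and 3 higher with cholesterol. Of 3 Schwann cell markers 2 were higher and 0 lower in control treatment (8.897 to 9.588 CPM with siAtf3 and 5.947 to 7.215 CPM with scramble). With cholesterol 1 of them was higher and 0 lower. Of all genes, 18.2% were lower and 18.1% higher with siAtf3 in control treatment, and 27.4% and 23% with cholesterol. With cholesterol, the macrophage counts and the 3 higher smooth muscle and pericyte markers lie near these shares. In control treatment the 2 higher fibroblast markers do, while the 5 higher macrophage markers exceed their share.

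With both siRNAs, macrophage markers differed from scramble, with 12 of 13 higher and 0 lower in control treatment (499.6 to 550.0 CPM with both siRNAs and 227.8 to 264.9 CPM with scramble), and 8 were higher and 0 lower with cholesterol (227.7 to 251.2 CPM with both siRNAs and 139.0 to 170.7 CPM with scramble). Against siAtf3, 8 of them were higher in control treatment and 9 with cholesterol, and 0 lower (3.71% and 5.4% of all genes higher). Against siNfe2l1, 2 macrophage markers were higher and 1 lower in control treatment, near the 12.3% higher and 14.5% lower of all genes. With cholesterol 0 were higher and 10 lower, against 15.7% and 20.9% of all genes. There 9 of 11 endothelial and 10 of 12 fibroblast markers were also lower, and 0 higher. Of 12 fibroblast markers 6 were lower and 0 higher than with scramble in control treatment (4131 to 4278 CPM with both siRNAs and 4672 to 4790 CPM with scramble), and 9 were lower and 1 higher with cholesterol (3298 to 3472 CPM with both siRNAs and 3888 to 4713 CPM with scramble). Adipocyte markers were 4 lower and 2 higher than with scramble in control treatment, and 8 lower and 2 higher with cholesterol. Of 3 Schwann cell markers 1 was higher and 0 lower in control treatment. With cholesterol 2 were higher and 0 lower (6.562 to 7.78 CPM with both siRNAs and 5.159 to 6.055 CPM with scramble). Of all genes, 14.3% were lower and 12.9% higher than with scramble in control treatment, and 23.9% and 20.8% with cholesterol. The 2 higher of 15 adipocyte markers in control treatment lie near that share. No marker of these lists other than the keratinocyte ones had 0 counts in all 4 libraries of a group. The part of these markers in the collagen differences was not tested.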

How the data were processed

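Poly(A) RNA libraries (32, in 8 groups of 4) were quantified by the authors as raw read counts per gene, deposited without scaling. Per the submitters' processing notes the tools were fastp, HISAT2 2.0.5 and featureCounts 1.5.0-p3 with the build GRCm39. Strandedness and the treatment of reads with several alignments are not given in the sources used here, so reads of overlapping genes and their antisense partners cannot be told apart. In the column names of the table an added C was read as cholesterol, to which the labels give no other key.

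In R 4.3.3, the count filter of edgeR 4.0.16, filterByExpr, with a minimum count of 10 and a minimum total of 15 over the groups left 16984 of 56748 genes. TMM factors were 0.886 to 1.1. All 8 groups entered 1 robust quasi-likelihood fit with 24 residual degrees of freedom. Contrasts (14 between 2 groups and 3 differences of the cholesterol response) were tested with glmQLFTest, adjusted by Benjamini-Hochberg over all genes tested, and called at 0.05. Levels are CPM on TMM-scaled library sizes, and RPKM values divide them by the table's gene length, whose definition is not stated. The precision is set by total counts of 23457384 to 33828418 per library, so genes under 1 CPM rest on few counts. All 48 pairs of same-group libraries varied beyond counting error (2.75 to 44.8 for chi-square over its degrees of freedom). The highest values were in cholesterol-loaded groups, and the fit assumes that groups vary alike.

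The collagen genes, the gene lists and the tests were chosen with earlier results of these data known. Values in every library are given for the 6 collagen genes with the highest level per length, the 2 highest of each class, and up to 4 called genes per comparison with the largest absolute log2 fold change at an average log2 CPM of at least 2. From each partner list, genes named were among up to 5 called genes per comparison with the smallest adjusted p. Serpinh1 with cholesterol in scramble cells was named after its values were seen. The pipeline was tested on simulated data. RefSeq windows (GRCm38.p6) were matched by symbol to 35 of the 44 genes.

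Alternatives were size factors and the Wald test of DESeq2 1.42.0, library totals alone, no count filter, a block for the replicate number, fits restricted to the groups compared, and each library left out. Leaving out siNfe2l1 cholesterol libraries 3 and 4, or the 8 libraries numbered 1, was added after seeing the data. The numbers in the labels were checked for pairing by correlating the deviations of same-numbered libraries from their group means over 5000 genes. All 4 pairs passed 0.1 in 2 comparisons: siAtf3 against scramble (r 0.34 to 0.47) and both siRNAs against siAtf3 (r 0.13 to 0.47), each with cholesterol.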

Additional observations from a re-analysis of the deposited data

Results flagged for a closer look

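In the 16 collagen genes with values in every library, 128 groups of 4 libraries were examined for a library far from the other members of its group, of which chance gives about 1 in 20. There were 6 such values. Of these, 5 lay in cholesterol-loaded siAtf3 libraries. Library 1 was low for Col15a1 at 1306 CPM, for Col4a2 at 2701 CPM and for Col5a1 at 678.2 CPM. Library 3 was high for Col13a1 at 8.13 CPM, and library 4 was high for Col8a1 at 6.47 CPM. The other was Col11a2 at 18.5 CPM in scramble control library 3.

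The response to cholesterol differed between siRNA treatments for some collagen genes by the test of the difference itself. With siAtf3 against scramble these were Col1a1 (-0.44), Col1a2 (-0.36), Col3a1 (-0.76), Col6a1 (-0.22), Col6a2 (-0.36), Col16a1 (-0.33), Col18a1 (-0.33), Col27a1 (-0.58) and Col28a1 (-0.50). With both siRNAs against scramble they were Col1a1 (-0.29), Col1a2 (-0.21), Col3a1 (-0.63), Col5a3 (-0.26), Col6a2 (-0.23), Col18a1 (-0.28), Col27a1 (-0.64) and Col28a1 (-0.31). The 2 comparisons share their scramble libraries.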

How the results depend on the processing

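Counts of called collagen genes stayed within 1.5 times the reported count in most settings, with these exceptions. With library totals alone, both siRNAs against siAtf3 in control treatment gave 5 (10 reported) and both siRNAs against scramble with cholesterol gave 14 (22 reported). The siNfe2l1 comparison with cholesterol (8 reported) gave 1 in a fit of only the groups compared and 3 without siNfe2l1 cholesterol libraries 3 and 4. The difference of the cholesterol response between both siRNAs and scramble (8 reported) gave 2 without the 8 libraries numbered 1. Leaving out 1 library at a time gave 2 to 6 for siNfe2l1 in control treatment, 3 to 10 for both siRNAs against siAtf3 in control treatment, 5 to 9 for siNfe2l1 with cholesterol and 5 to 11 for that difference of responses. It gave 23 to 25 for cholesterol in scramble cells, 21 to 25 for siAtf3 in control treatment, 22 to 25 for siAtf3 with cholesterol and 8 to 11 for the difference of responses with siAtf3.

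Of single gene values, 2 turned with library totals: Col18a1 with siAtf3 in control treatment was 0.00 (adjusted p = 0.962) and Col5a2 with both siRNAs and cholesterol against scramble was 0.01 (adjusted p = 0.861); the cause was not tested beyond the shift of all genes by 0.15 and 0.14. With library totals 47 further gene values no longer passed and 14 newly passed, and with DESeq2 14 newly passed. With the replicate block 11 newly passed and none was lost. In the paired comparisons the block gave 23 calls for siAtf3 with cholesterol (23 reported) and 14 for both siRNAs against siAtf3 with cholesterol (13 reported), where Col5a2 became called at 0.12. In 3 others with cholesterol 3 of 4 pairs passed 0.1, short of the rule for pairing, and it gave 9 for siNfe2l1 and 22 for both siRNAs against scramble and 20 for both siRNAs against siNfe2l1. In the rest it gave 6 for siNfe2l1 and 21 for both siRNAs in control treatment and 0, 10 and 10 for the differences of responses with siNfe2l1, siAtf3 and both. Depth limits the genes under 1 CPM (Col4a3, Col4a4, Col6a4 and Col17a1), whose standard errors reached 0.61. It also limits Col8a2, which had 10 counts in 22 of 32 libraries.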
